A study of Gallus gallus with 12 samples.

Results

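The piRNA pathway genes examined here were *PIWIL1*, *PIWIL2*, *TDRD1*, *TDRD5*, *TDRD7*, *TDRD9*, *MAEL*, *ASZ1*, *MOV10L1*, and *GTSF1*. They were taken from the expression table by exact gene name, and 9 of the 10 names were found among its 24356 genes. The name *PIWIL2* matched no row and the gene was not analysed here. All 9 genes were detected in every library, with *GTSF1* the highest at 1393 to 3846 TPM and no gene below 14.7 TPM. None of the 9 passed the limma test at an adjusted p of 0.05 in any comparison of stages or sexes, although some alternative fits called some of them. *ASZ1* was higher in all 4 E6.5 libraries than in all 4 E2.5 libraries, as were 5.62% of all tested genes. *MAEL* was lower in all 4 E6.5 libraries, as were 8.37% of all tested genes, and its closest values were 524 and 507 TPM. *TDRD9* and *TDRD7* had the lowest female to male ratios in circulating cells, and the 2 pools of each sex at E4.5 differed widely in *MOV10L1*, *GTSF1*, and *MAEL*.

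The piRNA pathway silences transposable elements in germ cells. PIWI proteins carry small RNAs of the piwi-interacting class, which guide them to complementary transcripts, and many of the proteins that make or load these small RNAs gather in cytoplasmic granules called nuage. Most of what is known about the individual proteins comes from mouse. There, *Piwil1* and *Piwil2* encode PIWI proteins, *Mov10l1* encodes an RNA helicase needed to process piRNA precursors, *Asz1* encodes a nuage protein anchored to mitochondria, and *Gtsf1* encodes a zinc finger protein that assists PIWI proteins in cutting their targets. The mouse *Tdrd* genes encode Tudor domain proteins that bind methylated arginines, among them *Tdrd9*, which also has a helicase domain, and *Mael* encodes a nuage protein needed for transposon silencing in the male germline.

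Primordial germ cells (PGCs), the embryonic precursors of eggs and sperm, were collected from white Leghorn chicken embryos by sorting cells positive for SSEA-1, a carbohydrate antigen on the PGC surface. At E2.5, the embryonic age in days, they came from blood and are called circulating PGCs (cPGCs). At E4.5 and E6.5 they came from the gonads and are called gonadal PGCs (gPGCs). Each of the 6 groups, ZZ males and ZW females at 3 stages, consisted of 2 libraries, and each library was a separate pool of 6 to 14 embryos, so that no value belongs to a single animal. The labels name no treatment and no transgene for any group.

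The reads assigned to genes ranged from 7185031 to 13749166 per library, and the first pools of both sexes at E4.5 had the fewest. The 2 pools also differed most from each other at E4.5, where the mean chi-square per gene, comparing the recovered reads of both pools, was 143.1 in males and 161.6 in females against 33.5 to 91.1 in the other groups. Of the germ cell markers, 6 of the 8 listed were in the table, and their summed level was 2374 to 4656 TPM. At E2.5 it was 4656 and 3408 TPM in the male and 2516 and 2822 TPM in the female libraries, although *DAZL*, *KIT*, and *DND1* overlapped between the sexes. Of the red blood cell markers, 7 of 13 were in the table. They took 16.5% of all TPM in the first E2.5 female library, 0.257% in the second, 4.45% and 1.59% in the male libraries of that stage, and at most 631 TPM in any gonadal library. All 11 gonadal somatic markers were in the table, with sums of 8.55 to 61.8 TPM, and *WT1*, *GATA4*, *NR5A1*, and *FOXL2* stayed at or below 1.02 TPM throughout. *DMRT1* was at 3.14 to 53.3 TPM and was highest in the first E4.5 pools, with 53.3 TPM in males and 29.8 TPM in females, while *CYP17A1*, *AMH*, and *SOX9* reached 9.44, 5.60, and 3.89 TPM. The paper cites an earlier report of *DMRT1* expression in germ cells of older female embryos, so its level need not come from somatic cells. Of the kidney and liver markers, 9 of 10 were in the table and summed to 553 and 4588 TPM in the E6.5 female libraries, against 8.28 to 121 TPM in the other 10. The authors stained sorted cells for CVH, a germ cell marker protein, and reported high purity at each stage in both sexes, without a value per library. From the transcript levels of sorted pools, fewer PGCs and less of a transcript per PGC cannot be told apart.

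Levels spanned a wider range across the set than those of any of its genes did across libraries. TPM is scaled by gene length, so levels can be compared between genes. *GTSF1* averaged 2569 TPM over the 12 libraries and ranked between place 14 and place 112 among all genes, which made it one of the most abundant messages of these cells. *MAEL* followed with a mean of 465 TPM, *ASZ1* with 259 TPM, *PIWIL1* with 182 TPM, and *MOV10L1* with 96.1 TPM. The 4 Tudor genes were lowest, with means of 48.2 TPM for *TDRD5*, 46.8 TPM for *TDRD1*, 44.5 TPM for *TDRD9*, and 36.6 TPM for *TDRD7*. *GTSF1* was above *MAEL* in all 12 libraries, *MAEL* above *ASZ1* in 11, *PIWIL1* above *MOV10L1* in 11, and *MOV10L1* above *TDRD5* in 10. The other neighbours in this order were not separated, since *ASZ1* was above *PIWIL1* in 8 libraries and neighbouring Tudor genes kept their order in 6 or 7 of 12. Together the 9 genes made up 0.208% to 0.509% of all TPM, and both ends of this range were E4.5 libraries. Recovered read numbers ranged from 163 for *TDRD9* in the shallowest case to 33886 for *GTSF1*, so that the error of counting reads was small beside the differences between pools. The paper reports a very low RNA yield, and error arising before sequencing is not covered by read numbers and was not tested.

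**Figure D1:**
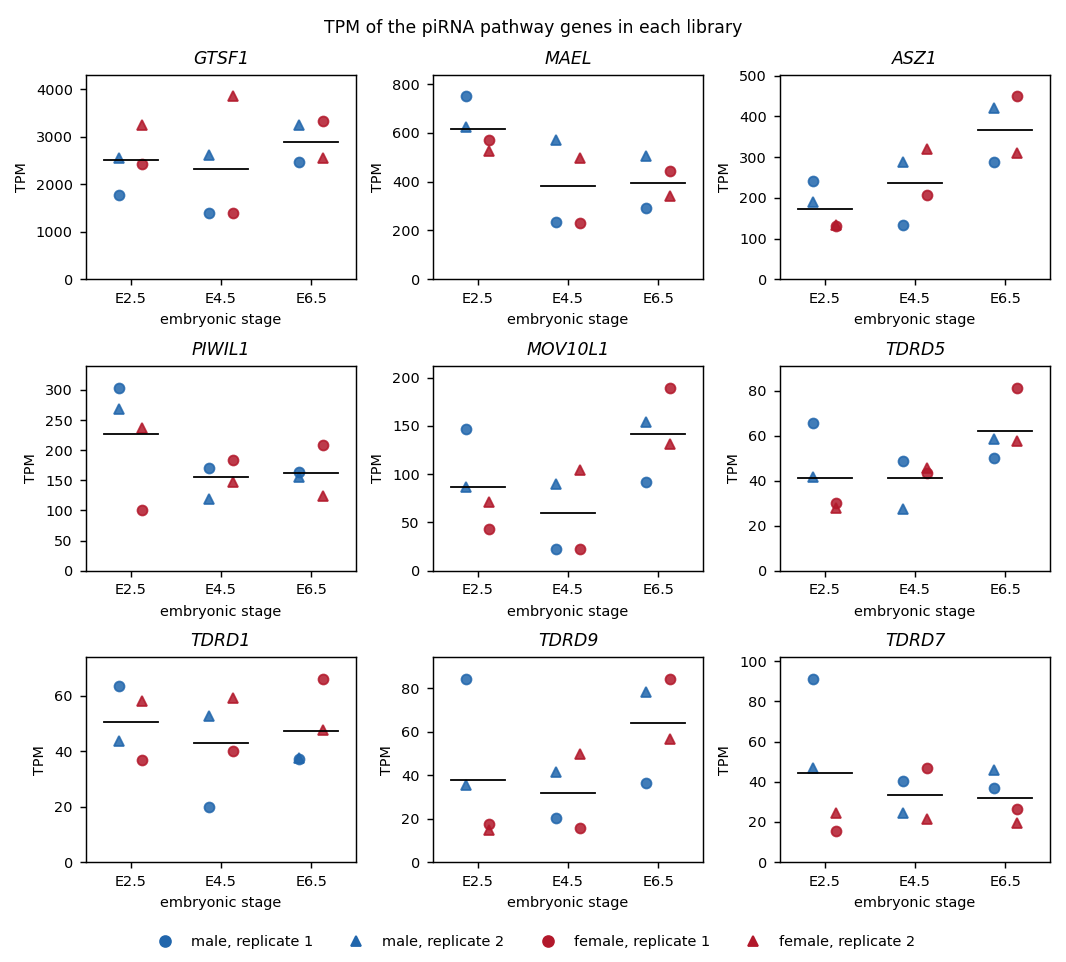
TPM (linear axis from 0, a different range in each panel) of each gene in each of the 12 libraries by embryonic stage. Colour shows sex, marker shape the replicate number, and the black line the mean of the 4 libraries of a stage. *ASZ1* does not overlap between E2.5 and E6.5, where 5.62% of all tested genes were higher without overlap. *MOV10L1* lies at 22.9 and 22.6 TPM in both first E4.5 pools.

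Genome positions are those of GRCg6a as deposited. *MOV10L1* lies on chromosome 1 from 20276230 to 20312309 on the plus strand, *ASZ1* on chromosome 1 from 24799631 to 24836289 on the plus strand, and *MAEL* on chromosome 1 from 93236812 to 93258497 on the minus strand. *TDRD9* lies on chromosome 5 from 50786850 to 50808516 on the plus strand and overlaps an unnamed gene on the same strand. How reads in the overlap were assigned is not given in the sources used here, so the level of *TDRD9* may be affected. *TDRD1* lies on chromosome 6 from 28664613 to 28683067 on the plus strand, *TDRD5* on chromosome 8 from 6501698 to 6514705 on the minus strand, *PIWIL1* on chromosome 15 from 3630416 to 3647097 on the minus strand, and *GTSF1* on chromosome 27 from 3444203 to 3455470 on the plus strand. *TDRD7* is the only one of the 9 on a sex chromosome, Z from 71017085 to 71057636 on the minus strand. Apart from *TDRD9*, no gene of the set overlapped another gene of the table.

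The comparison of E6.5 gPGCs with E2.5 cPGCs asked how the pathway stood before and after the cells had settled in the gonads. In this design age, tissue, and handling changed together, since circulating cells came from blood and gonadal cells from dissociated gonads. Their parts in any difference between these stages cannot be told apart. *ASZ1* was measured at 241 and 189 TPM in the male and 131 and 133 TPM in the female E2.5 libraries, and at 288 and 420 TPM in the male and 449 and 309 TPM in the female E6.5 libraries. All 4 gonadal values lay above all 4 circulating values. The difference was 1.09 ± 0.28 (SE) on the log2(TPM + 1) scale in the fit to all 12 libraries, with a limma Benjamini-Hochberg adjusted p of 0.065, which missed the threshold of 0.05. Fitted to the 8 libraries of these stages, the same difference had a limma adjusted p of 0.00554, and its adjusted p ranged from 0.00554 to 0.268 over all alternatives. By sex, in the fit to all 12 libraries, the log2 difference of *ASZ1* was 1.49 in females and 0.701 in males.

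*MAEL* ran the other way. It was at 749 and 626 TPM in the male and 569 and 524 TPM in the female E2.5 libraries, and at 292 and 507 TPM in the male and 446 and 341 TPM in the female E6.5 libraries. Every circulating value was above every gonadal value of E6.5, although the closest were 524 and 507 TPM. The log2 difference was -0.66 ± 0.32 (SE, limma adjusted p = 0.33), or an adjusted p of 0.0477 by limma on the 8 libraries alone, with a range of 0.0477 to 0.658 over the alternatives. Only *ASZ1* was non-overlapping and higher, where 5.62% of all 14154 tested genes were, and only *MAEL* was non-overlapping and lower, where 8.37% were.

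The remaining genes overlapped between these stages. *TDRD9* was at 84.2 and 35.3 TPM in males and 17.6 and 14.7 TPM in females at E2.5, and at 36.5 and 78.3 TPM in males and 84.1 and 56.6 TPM in females at E6.5. Its low circulating values were those of the females, and the E2.5 male range covered the whole E6.5 range. The log2 difference was 1.003 ± 0.430 (SE, limma adjusted p = 0.272). *MOV10L1*, the precursor-processing helicase, differed by 0.79 ± 0.50 and *TDRD5* by 0.63 ± 0.27, with limma adjusted p-values of 0.45 and 0.28. These values average over unlike changes in the sexes. *MOV10L1* was at 1.5 in females and 0.077 in males, *TDRD5* at 1.21 and 0.0496, and *TDRD9* at 2.03 and -0.028. *TDRD5* was at 65.9 and 41.7 TPM in male and 30.3 and 27.9 TPM in female cPGCs. *PIWIL1*, the PIWI protein gene of the set, was at 304 and 269 TPM in males and 101 and 238 TPM in females at E2.5, and at 163 and 155 TPM in males and 209 and 124 TPM in females at E6.5. Its first E2.5 female value was the lowest of the 12 libraries and its other 3 circulating values lay above all gonadal ones, with a log2 difference of -0.39 ± 0.29 (limma adjusted p = 0.526). *GTSF1* differed by 0.23 ± 0.31, *TDRD7* by -0.22 ± 0.35, and *TDRD1* by -0.10 ± 0.33, and the last turned to 0.05 after median-of-ratios scaling. *TDRD7* and *TDRD1* were at 0.22 and 0.27 in females and at -0.66 and -0.48 in males. The change in females lay above that in males for 8 of the 9 genes and below it for 1, *GTSF1*. None of the 9 was called by limma for this contrast between the sexes.

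Over the 9 genes, the median log2 difference between E6.5 and E2.5 was 0.23, and that of all tested genes was -0.11. None of the 9 was called by limma, where 1.98% of all genes were. An unadjusted p under 0.05 was reached by *ASZ1*, *TDRD9*, and *TDRD5*, 3 of 9, against 16.3% of all genes. In the fit to the 8 libraries, 2 of the 9 were called, against 11.1% of all genes. The E4.5 libraries entered the first fit through the shared estimate of the spread and the filter, and leaving out any 1 of the 4 also brought *ASZ1* below the threshold, with limma adjusted p-values of 0.0252 to 0.0391. In these fits 3.38% and 3.3% of all genes were called without the first and second male pool, and 3.89% and 3.74% without the first and second female pool.

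**Figure D2:**
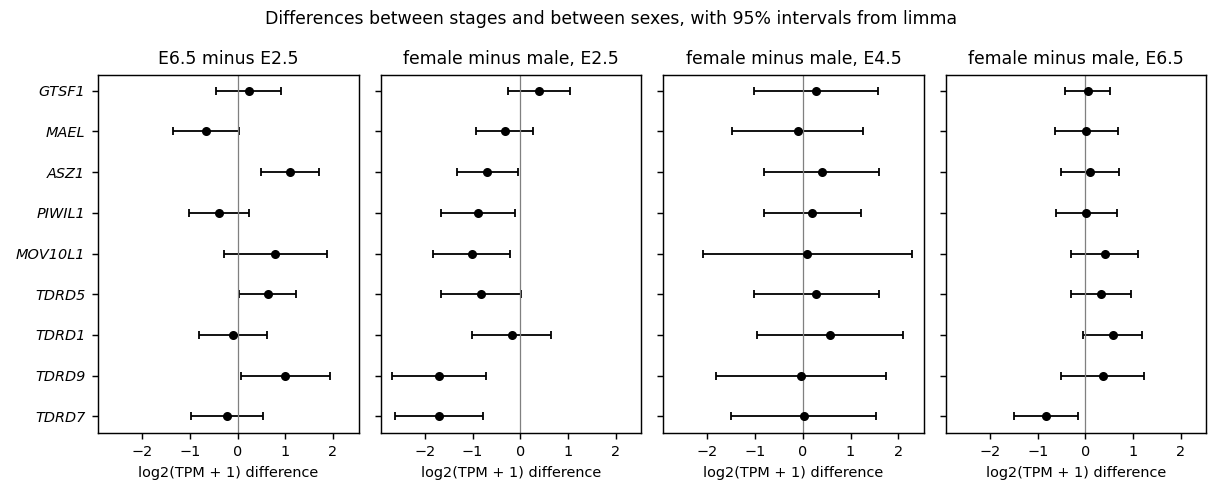
Differences on the log2(TPM + 1) scale with 95% confidence intervals from limma (points and horizontal bars), for E6.5 minus E2.5 and for female minus male at each stage. The intervals are not adjusted for the number of genes tested. Those of *ASZ1*, *TDRD9*, and *TDRD5* exclude 0 in the first panel. At E2.5 those of *TDRD9* and *TDRD7* lie lowest, and those of *MOV10L1*, *PIWIL1*, and *ASZ1* also exclude 0. At E6.5 that of *TDRD7* does, and the intervals at E4.5 are the widest.

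The E4.5 libraries have to be read with their pools in view. *MOV10L1* was at 22.9 TPM in the first and 90.2 TPM in the second male pool, and at 22.6 and 104 TPM in the female pools. *GTSF1* was at 1393 and 2620 TPM in the male and 1403 and 3846 TPM in the female pools, and *MAEL* at 234 and 570 TPM in the male and 229 and 497 TPM in the female pools. The first pools of both sexes were low and nearly equal in these 3 genes, and the second pools were high, so that replicate number separated the libraries where sex did not. *TDRD9*, at 20.1 and 41.3 TPM in males and 15.7 and 49.8 TPM in females, had the same order, as did *ASZ1* at 133 and 287 TPM and 207 and 321 TPM, and *TDRD1* at 19.97 and 52.6 TPM and 40.0 and 59.1 TPM. *PIWIL1* and *TDRD7* were ordered the opposite way in both sexes, with *PIWIL1* at 171 and 118 TPM in the male and 183 and 147 TPM in the female pools. In all, 6 of the 9 genes were higher in the second pool of both sexes and 2 were lower, whereas 31.8% of the 8726 genes averaging at least 5 TPM were higher and 50% lower. The median second to first ratio of the 9 genes was 2.00 in males and 1.55 in females, against 0.835 and 0.829 for all genes of that level.

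Comparisons with E4.5 depended on these pools. *MAEL* differed by -0.80 ± 0.32 (SE) on the log2 scale between E4.5 and E2.5 (limma adjusted p = 0.39), and by -0.20 when both first pools were left out, an alternative chosen after seeing the data. Between E6.5 and E4.5, *MOV10L1* differed by 1.52 ± 0.50 (limma adjusted p = 0.346), and by 0.50 without the first pools. *TDRD9* moved from 1.07 to 0.42 and *ASZ1* from 0.68 to 0.25 in the same way. Without the first pools *GTSF1* went from 0.44 to -0.15, *MAEL* from 0.14 to -0.46, *TDRD1* from 0.20 to -0.28, and *TDRD7* from -0.05 to 0.40, while *PIWIL1* went from 0.07 to 0.28. Leaving them out thus turned the direction of 4 of the 9 genes between E6.5 and E4.5, and of 5 of the 9 between E4.5 and E2.5. *TDRD5* was at 48.6 and 27.4 TPM in males and 43.4 and 45.9 TPM in females at E4.5, and at 50.3 and 58.6 TPM in males and 81.4 and 57.6 TPM in females at E6.5. All 4 later values lay above all 4 earlier ones, and the log2 difference was 0.58 ± 0.27 (limma adjusted p = 0.432) and 0.76 without the first pools.

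Between E4.5 and E2.5, none of the 9 genes was called by limma, where 0.184% of all genes were, and *MAEL* alone had an unadjusted p under 0.05, against 11.1% of all genes. None was non-overlapping between these stages, against 1.75% of all genes higher and 3.86% lower. Between E6.5 and E4.5, none of the 9 was called and neither was any other gene (0.0%), while *MOV10L1*, *TDRD9*, and *ASZ1* had an unadjusted p under 0.05, against 11.6% of all genes. *TDRD5* was the 1 gene of the 9 with no overlap and higher values at E6.5, against 3.64% of all genes, and none was lower without overlap, against 1.77%. Left out of the latter comparison, the second E4.5 female pool alone turned *MOV10L1* into a called gene, at a log2 difference of 2.06 (limma adjusted p = 0.0437), in a fit that called 2.81% of all genes.

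**Figure D3:**
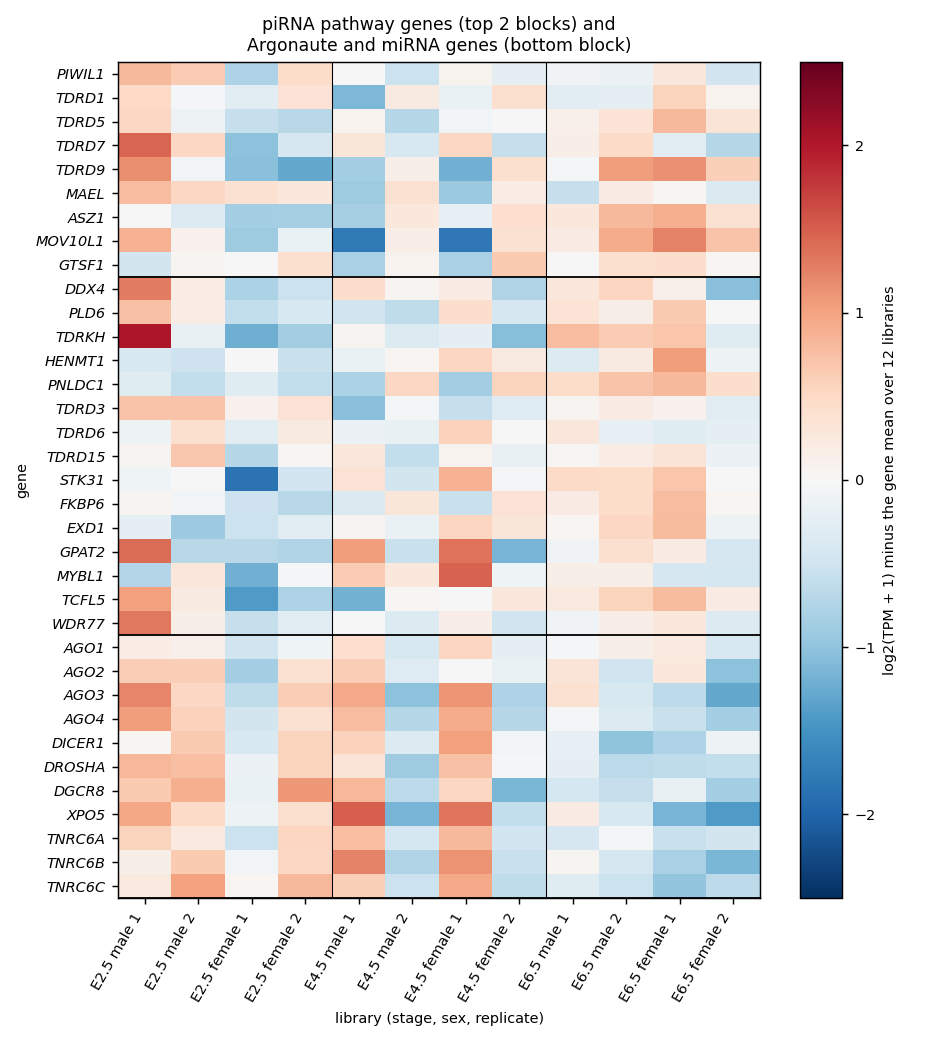
Each gene's log2(TPM + 1) minus its own mean over the 12 libraries (colour scale from -2.5 to 2.5), for the 9 piRNA pathway genes (top block), 15 further piRNA pathway genes (middle), and 11 Argonaute and miRNA genes (bottom), with libraries in order of stage, sex, and replicate. In the E4.5 columns, *MOV10L1*, *GTSF1*, and *MAEL* are low in both first pools and most of the bottom block is high.

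Sex was compared within each stage. At E2.5, *TDRD7* was at 91.0 and 46.9 TPM in male and 15.6 and 24.2 TPM in female cPGCs, and *TDRD9* at 84.2 and 35.3 TPM in male and 17.6 and 14.7 TPM in female cPGCs. Both genes were lower in both female pools, but their male pools differed from each other by about as much as the lower male pool did from the females. The log2 difference of female minus male was -1.70 ± 0.43 (SE, limma adjusted p = 0.159) for *TDRD7* and -1.70 ± 0.46 (limma adjusted p = 0.198) for *TDRD9*. When the second male pool was left out, which keeps only the higher male value, the differences were -2.17 and -2.32 and both genes were called, as was *MOV10L1*, in a fit that called 6.34% of all genes, whereas no other omission of 1 library brought a gene of the set below the threshold.

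*MOV10L1*, at 147 and 86.8 TPM in male and 42.7 and 71.1 TPM in female cPGCs, and *PIWIL1*, with the values given above, were also lower in both female pools. Their log2 differences were -1.02 ± 0.38 and -0.88 ± 0.37, with limma adjusted p-values of 0.338 and 0.38. *TDRD5* differed by -0.83 ± 0.40, *ASZ1* by -0.69 ± 0.30, *MAEL* by -0.33 ± 0.28, and *TDRD1* by -0.18 ± 0.39, and after median-of-ratios scaling the last 2 turned to 0.04 and 0.18. *GTSF1* was the 1 gene above 0, with 1776 and 2556 TPM in males, 2420 and 3250 TPM in females, and a log2 difference of 0.40 ± 0.31 (limma adjusted p = 0.631).

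These directions had to be set against a shift in the median of all genes. The median log2 difference of all tested genes at E2.5 was -0.34, that of the 9 genes -0.83. Of the 9 genes, 7 were lower in both female pools than in both male pools, where 36.5% of all genes were, and after median-of-ratios scaling it was 6, where 19.0% were. None of the 9 was higher without overlap, against 7.11% of all genes. None was called by limma, against 0.242% of all genes, and 5 had an unadjusted p under 0.05 (*TDRD7*, *TDRD9*, *MOV10L1*, *PIWIL1*, and *ASZ1*), against 11.6%. With the replicate number as a block, which the labels do not tie to a batch, 5 of the 9 were called, against 4.55% of all genes. That fit took the spread of each gene as known from the trend over all genes, not from the gene's own pools. Its calls are therefore less certain than their p-values state. By limma-voom on the recovered reads, 0 were called, against 0.137% of all genes, and 4 had an unadjusted p under 0.05 (*TDRD7*, *TDRD9*, and *MOV10L1*, lower in females, and *GTSF1*, higher), against 8.65%. After median-of-ratios scaling *TDRD7* and *TDRD9* had one, against 8.81% of all genes. The first female library of this stage was also the one with 16.5% haemoglobin TPM. With TPM rescaled without the haemoglobin genes, the differences were -1.62 for both *TDRD7* and *TDRD9*. The summed germ cell markers were lower in both female pools too, at 2516 and 2822 TPM against 4656 and 3408 TPM in males. Their part in the differences of the 9 genes was not tested.

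At E4.5 no gene of the 9 differed by more than the spread of the pools when the replicate number was ignored. With that number as a block, which the labels do not tie to a batch, none was called, against 0.417% of all genes. *ASZ1* alone then had an unadjusted p under 0.05, as did 1135 of 12229 genes. Its difference under the block was 0.40 ± 0.16 (SE, limma adjusted p = 0.523), against 0.40 ± 0.51 without it. The largest difference of female minus male was 0.57 ± 0.64 for *TDRD1*, and *MAEL* was at -0.11 ± 0.58, with a limma adjusted p of 0.9999 for each. Without the first male pool *TDRD1* was at -0.11, and without the second male or the first female pool *MAEL* was at 0.53 or 0.45. None was called, against 0.0164% of all genes, and none had an unadjusted p under 0.05, against 0.989%. None was higher or lower without overlap, against 8.01% and 9.17% of all genes.

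At E6.5, *TDRD7* was at 36.6 and 45.6 TPM in male and 26.6 and 19.5 TPM in female gPGCs, and *TDRD1* at 37.3 and 37.5 TPM in male and 65.9 and 47.7 TPM in female gPGCs. *TDRD7* was thus lower and *TDRD1* higher in both female pools, and neither overlapped between the sexes. The log2 differences were -0.82 ± 0.29 (SE, limma adjusted p = 0.239) and 0.57 ± 0.27 (limma adjusted p = 0.386). The other 7 genes differed by 0.01 to 0.40, and each of them overlapped between the sexes. None of the 9 was called, against 2.19% of all genes, *TDRD7* alone had an unadjusted p under 0.05, against 14.6%, and 1 gene was non-overlapping in each direction, against 18.2% of all genes higher and 28.2% lower. The kidney and liver markers were high in both female libraries of this stage, and their part in these differences was not tested. Without the second female library, in which they were highest, *TDRD7* differed by -0.60 and *TDRD1* by 0.80.

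Being Z-linked, *TDRD7* has 2 gene copies in ZZ males and 1 in ZW females, and birds compensate for this only in part. The Z genes tested had a median log2 difference of -1.11 over 596 genes in the E2.5 libraries, -0.78 over 584 in those of E4.5, and -0.87 over 592 in those of E6.5. Genes on neither Z nor W had medians of -0.32, 0.05, and -0.06 in the same order. The lower Z median at E2.5 thus came with a lower median of the other genes, and no value here is corrected for that shift. *TDRD7*, at -1.70, 0.02, and -0.82, had 8.22%, 94.3%, and 54.1% of the Z genes below it at these stages. Its mean male to female ratio was 3.47 in cPGCs, 0.945 in the younger gPGCs, and 1.79 in the older ones. Only the E6.5 value was near the middle of the Z genes, and the E4.5 value came from pools of 40.3 and 24.3 TPM in males and 47.0 and 21.4 TPM in females, where the first pools lay above the second in both sexes.

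Whether the sex difference itself changed between stages was tested as an interaction on all 12 libraries. That of *TDRD7* moved toward 0 from E2.5 to E4.5, by 1.72 ± 0.69 on the log2 scale (limma adjusted p = 0.995), and that of *TDRD9* turned from lower to slightly higher in females from E2.5 to E6.5, by 2.06 ± 0.86 (limma adjusted p = 0.892). No gene of the 9 was called for a change from E2.5 to E4.5, from E2.5 to E6.5, or from E4.5 to E6.5, and neither was any other gene (0.0% in each). An unadjusted p under 0.05 was reached by *TDRD7* in the first, against 2.78% of all genes, by *TDRD9* in the second, against 5.16%, and by none in the third, against 3.55%.

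The ratio of 2 genes within a library does not depend on how that library was scaled. The ratio of *ASZ1* to *MAEL*, a pair picked after their values were seen and therefore only described, was 0.322 and 0.302 in the male and 0.231 and 0.254 in the female E2.5 libraries. It was 0.570 and 0.504 in the male and 0.903 and 0.645 in the female E4.5 libraries, and 0.987 and 0.829 in the male and 1.01 and 0.908 in the female E6.5 libraries. The E2.5 mean was 0.277 ± 0.042, the E4.5 mean 0.655 ± 0.175, and the E6.5 mean 0.933 ± 0.081 (SD, n = 4 libraries). The circulating values did not overlap with those of either gonadal stage, while 1 E4.5 value, that of the first female pool, reached into the E6.5 range. Between E2.5 and E6.5 the lack of overlap was fixed beforehand, since *ASZ1* alone was higher and *MAEL* alone lower in all 4 E6.5 libraries. The first and second pools of E4.5, which stood far apart in both genes, were closer in the ratio. Of the 36 pairs among the 9 genes, 12 did not overlap between E2.5 and E6.5, or 33.3%, against 18.6% of all pairs of genes averaging at least 5 TPM. *MAEL* was in 5 of the 12, and the pairs share their genes and are not independent.

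**Figure D4:**
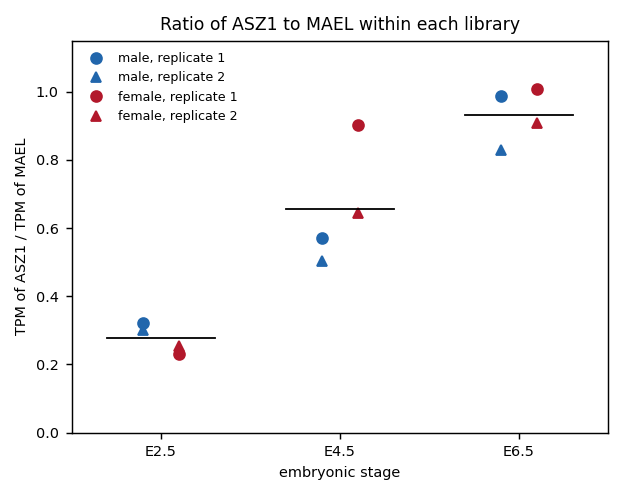
Ratio of the TPM of *ASZ1* to that of *MAEL* in each library (linear axis from 0) by embryonic stage, with colour for sex, marker shape for replicate number, and the black line for the mean of 4 libraries. The E2.5 libraries lie between 0.231 and 0.322 and the E6.5 libraries between 0.829 and 1.01.

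Of 22 further piRNA pathway genes listed, 15 were in the table, and all of them were tested. Between E6.5 and E2.5, 11 of the 15 had a positive and 4 a negative difference. Their median was 0.31 on the log2 scale, against -0.11 for all tested genes. None was called by limma in the fit to all 12 libraries, where 1.98% of all genes were. The highest of these genes relative to their error was *PNLDC1*, which in mouse encodes the exonuclease that trims the 3′ ends of piRNAs. It was at 173 and 138 TPM in male and 172 and 139 TPM in female cPGCs, and at 294 and 348 TPM in male and 374 and 288 TPM in female gPGCs of E6.5. The groups did not overlap, and the log2 difference was 1.06 ± 0.34 (limma adjusted p = 0.135, and 0.00419 on the 8 libraries alone). *STK31*, which encodes a Tudor domain kinase, differed by 1.01 ± 0.33 (limma adjusted p = 0.147, and 0.0335 on the 8 libraries alone). It was at 126.9 and 139.1 TPM in male and 37.6 and 98.8 TPM in female cPGCs. At E6.5 it was at 191.5 and 189.3 TPM in male and 223.4 and 138.8 TPM in female gPGCs, so the stages overlapped narrowly. Its lowest value was that of the first E2.5 female library. The fit to the 8 libraries called 11.1% of all genes. In sex at E2.5, 13 of the 15 were below 0, with a median of -0.71, against -0.34 for all tested genes. The lowest adjusted p there was that of *DDX4*, which encodes the germ cell helicase Vasa, at 680 and 317 TPM in male and 161 and 191 TPM in female cPGCs. Its log2 difference was -1.40 ± 0.35 (limma adjusted p = 0.138). The gene was called when only genes averaging at least 5 TPM were tested (limma adjusted p = 0.0358), in a fit that called 0.784% of those genes.

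The Argonaute and miRNA genes, which serve the small RNA pathway found in most cells, were listed for comparison, and 11 of 12 were in the table. Between E6.5 and E2.5, 10 of these 11 were below 0, with a median of -0.89, against -0.11 for all tested genes. None was called by limma in the fit to all 12 libraries, where 1.98% of all genes were. Of the 11, 3 had an unadjusted p under 0.05, against 16.3% of all genes. *DROSHA*, the nuclease that releases miRNA precursors, differed by -1.03 ± 0.38 (limma adjusted p = 0.203, and 0.0424 on the 8 libraries alone, where 11.1% of all genes were called). In sex at E2.5, all 11 of these genes were below 0, with a median of -0.46, against -0.34 for all tested genes. None of the 11 had an unadjusted p under 0.05, against 11.6% of all genes. At E4.5, 8 of them had a mean of 5 TPM or more, and all 8 were lower in the second pool of both sexes. So were 50% of all genes of that level, while 6 of the 9 piRNA pathway genes went the opposite way. Of the further piRNA pathway genes, 4 of 14 were higher and 9 lower in both second pools. These shares, 28.6% and 64.3%, were near the 31.8% and 50% of all genes of that level.

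The genes of the set did not share a single profile. As a measure of likeness, the root mean square difference between gene-centred log2(TPM + 1) profiles over the 12 libraries was taken among genes averaging at least 5 TPM. *MOV10L1* and *TDRD9* were each other's closest partners within the set, at 0.47, and ranked at place 81 and place 71 of 8725 genes for each other. For the other 7 genes, the closest partner within the set ranked between place 613 and place 1744. The most similar genes of all were *NTPCR* for *GTSF1* at 0.13, *HJURP* for *ASZ1* at 0.15, *ITSN1* for *PIWIL1* at 0.16, *MOSPD2* for *TDRD1* at 0.16, *TGFBR1* for *MAEL* at 0.18, *FAM114A1* for *TDRD5* at 0.18, *NCOA5* for *TDRD7* at 0.20, *CHAF1B* for *MOV10L1* at 0.28, and *NUP93* for *TDRD9* at 0.31. None of these 9 was on a list of piRNA pathway genes.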

How the data were processed

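Libraries were prepared from sorted PGC pools with SMART-seq v4 and Nextera XT. The authors checked reads with FastQC 0.11.9, trimmed them (Trimmomatic 0.39, Trim Galore 0.6.6, cutadapt 3.1), aligned them to GRCg6a (STAR 2.7.3a) and counted unique alignments by gene (featureCounts 2.0.1). The authors deposited TPM (a length-scaled share of each library's transcripts, summing to 1000000) for 24356 genes with their lengths. How counts became TPM is not given in the sources used here. TPM times length gave whole reads for 100% of low values (tolerance 0.02), from which reads per gene were recovered.

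Comparisons used limma 3.58.1 in R 4.3.3 with a trend on log2(TPM + 1), for genes reaching 1 TPM in at least 2 libraries, and Benjamini-Hochberg adjustment over all of them (threshold 0.05). Sexes were compared on the 4 libraries of a stage, and stages and interactions on all 12. With 2 libraries against 2, the smallest exact two-sided permutation p is 0.333. Separate pools give p-values for the spread between pools only. The scripts were tested on simulated data, where the fit to 4 libraries, used for every comparison of the sexes, made more false calls than its threshold implies. The genes and lists were chosen with earlier results of these data known. Named genes were the set, the lists, and the most similar genes by profile. Alternatives were a pseudocount of 0.1, no filter, a mean of 5 TPM or more, median-of-ratios scaling, TPM without haemoglobin genes, limma-voom on recovered reads, all 12 libraries or only those compared, a replicate block, and each library left out. Python 3.11.15 with pandas 2.3.3 and matplotlib 3.10.9 was used for the rest.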

Additional observations from a re-analysis of the deposited data

How the results depend on the processing

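Each count of called genes among the 9 was 0 in the limma fits and stayed 0 in 150 of 159 alternative values, limma-voom on the recovered reads included. The others were 2 of the 9 (*ASZ1* and *MAEL*) between E2.5 and E6.5 on the 8 libraries of these stages, and the counts under the replicate block given with the pairing. With 1 library left out, the counts ranged from 0 to 3 for sex at E2.5, from 0 to 1 between E2.5 and E6.5, and from 0 to 1 between E4.5 and E6.5, and were 0 in the other 6 comparisons. The 3 at E2.5 appeared without the second male library (753 of all genes), and the 1 between E4.5 and E6.5 without the second female library of E4.5 (397). An arm left with 1 library was assumed to vary like the other groups.

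The direction of small differences was not fixed. *TDRD1* between E6.5 and E2.5 was at 0.049 after median-of-ratios scaling and ranged from -0.27 to 0.058 with 1 library left out, and *TDRD7* from -0.46 to 0.012. For sex at E2.5, *TDRD1* was at 0.18 after median-of-ratios scaling, at 0.016 by limma-voom, and at -0.50 to 0.15 with 1 library left out, and *MAEL* was at 0.043 after that scaling. For sex at E4.5, *TDRD1* ranged from -0.11 to 1.24 and *MAEL* from -0.75 to 0.53 with 1 library left out. Between E6.5 and E4.5, *TDRD7* was at 0.0064 after median-of-ratios scaling. With both first E4.5 libraries left out, *TDRD7* was at 0.40, *TDRD1* at -0.28, *MAEL* at -0.46, and *GTSF1* at -0.15. With 1 library left out, *PIWIL1* ranged from -0.12 to 0.26, *TDRD1* from -0.14 to 0.54, *TDRD7* from -0.32 to 0.23, and *MAEL* from -0.18 to 0.46. The cause was not tested. The log2 ratio of *ASZ1* to *MAEL* between E6.5 and E2.5 was 1.76 and ranged from 1.67 to 1.83. The number of all genes called was less stable. For sex it ran from 10 to 563 in E2.5 libraries (30 as reported), 0 to 51 in E4.5 libraries (2), and 10 to 563 in E6.5 libraries (263). Between E2.5 and E4.5 it ran from 0 to 29 (26) and between E2.5 and E6.5 from 172 to 1485 (280), over the alternatives that kept every library compared. With 1 library left out it ran from 3 to 753, 2 to 8, and 34 to 839 for sex at the 3 stages in order, from 2 to 116 between E2.5 and E4.5, 28 to 538 between E2.5 and E6.5, and 0 to 397 between E4.5 and E6.5. For the change of the sex difference it was 0 from E2.5 to E4.5, 0 to 86 from E2.5 to E6.5, and 0 to 116 from E4.5 to E6.5.

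Labels give every group replicate numbers 1 and 2 without saying that equal numbers share a batch. Deviations of same-numbered libraries from their group means correlated between the sexes at 0.211 for E2.5, 0.607 for E4.5 and -0.113 for E6.5, and at -0.165 to 0.607 over 15 pairs of groups, so the numbers were not taken to pair the libraries. With the replicate number as a block, 5 of the 9 were called for sex at E2.5, where 563 genes or 4.55% of all were. These were *TDRD7*, *TDRD9*, *PIWIL1*, *GTSF1*, and *MOV10L1*, with limma adjusted p-values of 0.00386, 0.00724, 0.0127, 0.0228, and 0.0451, and *GTSF1* alone was higher in females. Because this E2.5 fit took each gene's spread as known from the trend over all genes, these p-values overstate the certainty. Under the block *ASZ1* was called between E2.5 and E6.5 (limma adjusted p = 0.0492), where 361 genes or 2.55% of all were, and 0 of the 9 were called in the other 7 comparisons. With the numbers crossed at E6.5, 0 of the 9 and 563 of all genes were called for sex. With 2 pools per group, the spread between pools rather than read depth set the precision.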
